A study of Homo sapiens with 21 samples.

Results

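THZ531 is a covalent inhibitor of the kinases CDK12 and CDK13, and the comparison described here set its high dose against its low dose in Hs578T cells, an established line of triple-negative breast cancer labelled wild type. The members were the 3 libraries treated with THZ531 at 1 μM and the 3 treated at 0.1 μM, 6 of the 21 libraries of the series, together with every gene that passed a count filter, 16036 of the 28395 genes in the count table. Another group of 3 libraries, treated with the solvent DMSO, gave the level without inhibitor. Cells of all 3 groups received no other inhibitor, carried no genetic change named in the labels and were collected 8 h after treatment. The remaining 12 libraries of the series, treated with lapatinib or nilotinib alone or with 0.1 μM THZ531, entered the fit as groups of their own and are otherwise not described. All libraries came from 1 cell line. The study describes independent experiments, whereas the labels do not say which libraries shared one, so p-values measure the spread between these libraries of 1 line.

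CDK12 and CDK13 bind cyclin K and phosphorylate the C-terminal domain of RNA polymerase II while it elongates. Loss of their activity is known to cause early cleavage and polyadenylation within introns and to lower full-length mRNAs of long genes, those of DNA repair among them. Other mRNAs, especially short ones or stable ones, are known to be less affected, and short immediate-early genes can be induced when transcription is disturbed.

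The total count per library was 105036702 to 106791643 at 0.1 μM, 102203282 to 104176583 at 1 μM and 106023299 to 112229052 with DMSO, and log2 CPM (CPM being a count divided by its library's TMM-scaled total) correlated between replicates with r of at least 0.990. The 100 most abundant genes took 26.2 to 26.7% of counts at 1 μM, against 21.5 to 21.8% at 0.1 μM and 21.2 to 21.8% with DMSO. The 13 mitochondrially encoded mRNAs took 1.36 to 1.78% at 1 μM, against 1.14 to 1.27% at 0.1 μM and 1.19 to 1.35% with DMSO. Replicate 2 at 1 μM had the lowest level of its group in 71.6% of the 2820 genes called lower below. Mesenchymal genes that mark this line were high in every library, with summed levels over 21 genes of 28745 to 35443 CPM at 0.1 μM and 45088 to 49914 CPM at 1 μM. The 9 epithelial and hormone receptor genes that passed the filter summed to 178 to 192 CPM at 0.1 μM and 206 to 216 CPM at 1 μM. CDH1 was at 0.17 and 0.18 CPM on average, and EPCAM and PGR did not pass. Nearly all of the sum came from other members, so this list as a whole was not silent. The 6 immune and endothelial genes tested summed to 98.2 to 107 CPM at 0.1 μM and 148 to 180 CPM at 1 μM, nearly all of it from CD68 (100 ± 4 CPM at 0.1 μM, SD, n = 3), while PECAM1 stayed below 0.4 CPM on average in all 3 groups.

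At 1 μM, 2820 genes were lower than at 0.1 μM (17.6% of the genes tested) and 1096 were higher (6.83%), at an adjusted p under 0.05 and a log2 fold change (FC) beyond 1. At any size of log2 FC, 5764 genes passed as lower (35.9%) and 5495 as higher (34.3%). The step from DMSO to 0.1 μM was far smaller by the same test, with 691 genes lower (4.31%) and 286 higher (1.78%). Levels of the 3 libraries of each dose did not overlap in 2803 of the 2820 falls and in 1031 of the 1096 rises, against a background in which 37.2% of all genes lay lower without overlap and 36.3% higher. The falls were mostly in genes of middle level, with a median of 3.39 on the log2 CPM scale, and 20.3% of them had a mean below 1. Of the rises, 92.0% had a mean log2 CPM below 1, so that most of the genes called higher were detected weakly, and their counts depended on the filter: with at least 10 counts required in every library 503 rises were called.

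The counts give levels relative to the other genes of a library. Fewer cells and less RNA per cell cannot be told apart in bulk samples, and a general change in RNA content is not visible. With TMM scaling the median log2 FC over all genes was 0.04, so changes below can be read against it. Scaling by library size alone moved it by -0.22, upper-quartile scaling by 0.23 and scaling to the 13 mitochondrially encoded mRNAs by -0.54. Falls made up 72.0% of the calls beyond 1 with TMM, 82.9% with library size, 52.9% with the upper quartile and 90.8% with the mitochondrial mRNAs.

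**Figure D1:**
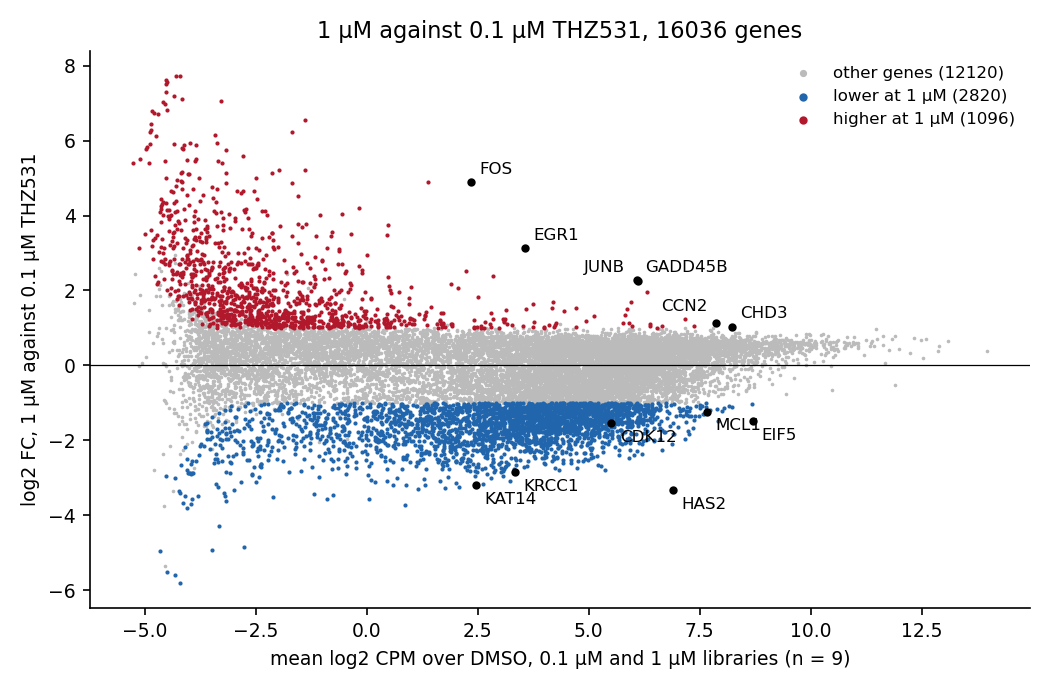
Difference between doses by expression level. Each point is a gene, with its mean log2 CPM over 9 libraries on the x axis and its log2 FC of 1 μM against 0.1 μM THZ531 on the y axis. The 2820 genes called lower (blue) lie mostly at middle levels, and the 1096 called higher (red) mostly below a mean log2 CPM of 1, with FOS, EGR1, JUNB and GADD45B standing out above it.

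The targets of the inhibitor were read first. CDK12 (gene identifier 51755, chromosome 17, 39461486 to 39567559 in GRCh38) was at 48.8, 57.5 and 49.3 CPM with DMSO, at 66.3, 74.7 and 78.9 CPM at 0.1 μM and at 29.6, 21.1 and 25.3 CPM at 1 μM. The 3 groups did not overlap, with the low dose highest and the high dose lowest. Its log2 FC between doses was -1.53 ± 0.14 (SE, adjusted p = 1.2e-08), a 2.90-fold lower level at 1 μM. CDK13, the partner kinase, was at 75.5, 77.3 and 83.2 CPM at 0.1 μM and fell to 46.2, 28.3 and 42.4 CPM at 1 μM (log2 FC -1.01 ± 0.17, adjusted p = 2.7e-05). CCNK, which encodes the cyclin of both kinases, fell least, from 75.4 ± 2.66 CPM to 59.7 ± 9.53 CPM (SD, n = 3, log2 FC -0.34, adjusted p = 0.02). Its call was lost with the upper quartile (log2 FC -0.11, adjusted p = 0.42), without 0.1 μM replicate 3 (adjusted p = 0.057) and without 1 μM replicate 2 (-0.21, adjusted p = 0.13). ABCG2, a drug efflux pump, was at 29.4, 25.1 and 23.6 CPM at 0.1 μM and at 27.1, 29.5 and 28.7 CPM at 1 μM, and these ranges overlapped (log2 FC 0.13 ± 0.12, adjusted p = 0.35). Its sign depended on the scaling, with -0.10 for library size alone and -0.41 relative to the mitochondrial mRNAs (adjusted p = 0.041), against 0.36 with the upper quartile (adjusted p = 0.011).

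Among the other transcriptional CDKs and their partners, 7 of 16 genes were lower (43.8%, against 35.9% of all genes) and 2 higher (12.5%, against 34.3%), with a median log2 FC of -0.23 that was about 0 with upper-quartile scaling. CDK9, the kinase that releases paused polymerase, fell from 27.2, 25.6 and 27.6 CPM to 16.9, 11.8 and 12.4 CPM (log2 FC -0.97 ± 0.13), and its cyclin CCNT1 fell by 0.97 on the log2 scale as well. CDK8, the kinase of the Mediator complex, fell by 0.99, and CCNL1, a cyclin of CDK11, by 1.13. Of 24 elongation factors of RNA polymerase II, 12 were lower (50.0%) and 4 higher (16.7%), or 7 lower and 7 higher with the upper quartile. The falls included LEO1, a subunit of the PAF1 complex (log2 FC -1.03), IWS1, which works with SPT6 (-1.35), and NELFA, a subunit of the pausing factor NELF (-1.06). NELFE was also called lower, but its 0.1 μM libraries were at 4.62, 0.576 and 13 CPM, a wide spread within 1 dose. Its call passed in 5 of the 9 fits that left out a library, with an adjusted p of up to 0.14.

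Cleavage and polyadenylation factors, the proteins that cut pre-mRNA and add the poly(A) tail, were lower in 13 of 22 genes (59.1%, against 35.9% of all genes) and higher in 6 (27.3%, against 34.3%), with a median log2 FC of -0.53. CPSF7, a subunit of cleavage factor I, was at 111.7, 111.4 and 114.1 CPM at 0.1 μM and at 25.0, 18.3 and 26.2 CPM at 1 μM (log2 FC -2.28 ± 0.11, adjusted p = 7.3e-13). CSTF2T and CSTF1, of the cleavage stimulation factor, fell by 2.46 and 2.36 on the log2 scale, and PAPOLG, a poly(A) polymerase, by 2.09. PCF11, which links cleavage to termination, fell from 26.8 ± 1.7 to 9.60 ± 1.7 CPM (SD, n = 3). CSTF3, another subunit of the stimulation factor, was at 48.4 ± 1.7 CPM with DMSO, at 20.1 ± 2.9 CPM at 0.1 μM and at 15.7 ± 0.22 CPM at 1 μM, so that the larger step came at the low dose (log2 FC -1.27 and then -0.36). CPSF6, the partner of CPSF7, rose between doses by 0.57 on the log2 scale, while 0 of the 22 genes passed as higher when scaled to the mitochondrial mRNAs. Members named here other than CPSF7, CSTF2T, CSTF1 and PAPOLG were chosen after their values were seen.

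DNA repair is the pathway that loss of CDK12 is best known to affect. Of 39 homologous recombination and Fanconi anemia genes, 29 were lower at 1 μM than at 0.1 μM (74.4%, against 35.9% of all genes) and 6 were higher (15.4%, against 34.3%), with a median log2 FC of -1.09. Their median stayed between -1.63 and -0.85 under the other 4 scalings. EXO1, the nuclease that resects broken ends, was at 48.7, 45.3 and 48.7 CPM with DMSO, at 55.5, 52.3 and 50.5 CPM at 0.1 μM and at 11.1, 9.13 and 11.2 CPM at 1 μM. It passed the test between the doses and not between DMSO and 0.1 μM (log2 FC between doses -2.33 ± 0.09, adjusted p = 8.6e-14). BLM, a helicase that dissolves recombination intermediates, fell from 17.2, 18.4 and 17.7 CPM to 3.38, 2.20 and 3.95 CPM (log2 FC -2.48 ± 0.15), and SLX4, a scaffold for nucleases, from 8.34, 10.8 and 11.9 CPM to 1.94, 1.19 and 1.49 CPM (-2.74 ± 0.23). None of these 3 genes passed the test between DMSO and 0.1 μM, where their adjusted p lay between 0.062 and 0.79.

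Several repair genes did not follow this order, and they are given because of their values. BRCA1 was at 21.5 ± 1.6 CPM with DMSO, at 11.98 ± 0.86 CPM at 0.1 μM and at 11.5 ± 2.2 CPM at 1 μM (SD, n = 3), so the fall passed the test at the first step and not between the doses (log2 FC -0.84 at the first step, adjusted p = 0.00024, and -0.06 between doses, adjusted p = 0.68). BRCA2 was at 16.6 ± 1.9 CPM at 0.1 μM and at 4.32 ± 1.0 CPM at 1 μM, a fall of 1.94 on the log2 scale. RAD50, part of the complex that senses broken ends, went from 67.0 ± 6.6 CPM with DMSO to 47.5 ± 3.8 CPM at 0.1 μM. It was higher again at 1 μM (73.9 ± 8.7 CPM, log2 FC between doses 0.64, adjusted p = 0.0002). FANCA moved the other way, from 17.2 ± 0.40 CPM with DMSO to 28.0 ± 1.1 CPM at 0.1 μM and 25.1 ± 1.6 CPM at 1 μM. The values of these genes are from TMM scaling alone. Scaling to the mitochondrial mRNAs moved the median of all genes between doses by -0.54, more than the difference between doses of BRCA1. In that setting 0 of the 39 genes of the list passed as higher, so the rise of RAD50 depended on the scaling.

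Checkpoint genes were lower in 16 of 22 cases (72.7%, against 35.9% of all genes) and higher in 2 (9.09%, against 34.3%), ATM and TIMELESS, with a median log2 FC of -0.79. ATRIP, which brings the kinase ATR to single-stranded DNA, was at 15.1, 14.9 and 15.1 CPM at 0.1 μM and at 2.38, 1.96 and 2.54 CPM at 1 μM (log2 FC -2.71 ± 0.10). The CDC25 phosphatases, which start mitosis and S phase by activating cyclin-dependent kinases, all fell: CDC25A by 1.64, CDC25B by 1.68 and CDC25C by 1.62 on the log2 scale. ATRIP overlaps TREX1 in the annotation, and reads of overlapping genes cannot always be told apart without strand.

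Of 26 mitosis genes 17 were lower (65.4%, against 35.9% of all genes) and 2 higher (7.69%, against 34.3%), with a median of -0.51, or 13 lower and 5 higher with the upper quartile. In this list CCNA2 (cyclin A), NDC80 (kinetochore), AURKB and TTK (mitotic kinases) fell by 1.97, 1.95, 1.92 and 1.79 on the log2 scale. Of 36 replication genes 17 were lower (47.2%) and 14 higher (38.9%), closer to the shares of all genes, with a median of -0.06, or 0.17 with the upper quartile. GINS1, a subunit of the replicative helicase, fell from 41.3, 43.1 and 40.4 CPM to 11.8, 12.8 and 10.1 CPM, and the origin recognition subunits ORC1 and ORC2 fell by 1.73 and 1.65.

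Zinc-finger genes named ZNF made up 307 of the 2820 falls. Of 488 genes whose symbol begins with ZNF, 376 were lower and 26 higher, 77.0% and 5.33% (against 35.9% and 34.3% of all genes), with a median log2 FC of -1.38. The list holds 456 genes with a plain symbol, of which 372 were lower and 13 higher, and 32 antisense, divergent or readthrough transcripts, of which 4 were lower and 13 higher. Many of these proteins are repressors that bind DNA through their zinc fingers. ZNF564 was at 9.72, 8.36 and 8.70 CPM at 0.1 μM and at 0.861, 0.775 and 1.21 CPM at 1 μM, a 9.41-fold lower level (log2 FC -3.23 ± 0.16), beside 9.78, 8.39 and 8.90 CPM with DMSO. ZNF619, ZNF175 and ZNF440 fell by 3.18, 3.16 and 3.08. Between DMSO and 0.1 μM, 31 ZNF genes were lower (6.35%, against 4.31% of all genes) and 5 higher (1.02%, against 1.78%).

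HAS2, the enzyme that makes the matrix polysaccharide hyaluronan, had the largest fall among genes with a symbol and a mean log2 CPM of at least 1. It was at 275, 268 and 250 CPM with DMSO, at 284, 266 and 237 CPM at 0.1 μM and at 30.5, 16.3 and 31.4 CPM at 1 μM. The DMSO and 0.1 μM ranges overlapped, and the 1 μM libraries lay 10.1-fold lower than those at 0.1 μM (log2 FC -3.33 ± 0.20, adjusted p = 1.5e-11). SDR42E1, a dehydrogenase, fell by 3.30 and HOMEZ, a homeobox gene, by 3.15 on the log2 scale. KAT14, a subunit of a histone acetyltransferase complex, was at 9.41, 9.89 and 9.97 CPM at 0.1 μM and at 1.02, 1.19 and 0.995 CPM at 1 μM (log2 FC -3.19 ± 0.10), having been at 15.3 to 16.1 CPM with DMSO. Among the falls the highest levels were those of EIF5, a translation initiation factor (613, 600 and 576 CPM at 0.1 μM, and 220, 190 and 228 CPM at 1 μM), SRSF3, a splicing factor (log2 FC -1.12), STC2, a secreted glycoprotein (-1.02), and TRAM2, which works in collagen secretion (-1.08).

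Of 33 histone methyltransferases, acetyltransferases and remodellers 19 were lower (57.6%, against 35.9% of all genes) and 2 higher (6.06%, against 34.3%), with a median of -0.73. NSD1, SETDB2 and CHD1 fell by 1.83, 1.73 and 1.52 on the log2 scale. CHD3, a remodeller of the NuRD complex outside that list, was at 190, 229 and 265 CPM at 0.1 μM and at 521, 456 and 421 CPM at 1 μM, and had the highest mean level among the genes named by rule that rose beyond 1 (log2 FC 1.03 ± 0.17).

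The immediate-early genes moved in both directions. These genes encode transcription factors and feedback regulators that growth factors and stress switch on within minutes. Of 39 tested, 20 were higher at 1 μM (51.3%, against 34.3% of all genes) and 15 lower (38.5%, near the 35.9% of all genes), and 12 were higher beyond 1, as were 6.83% of all genes. At 0.1 μM 7 of the 39 were already higher than DMSO (17.9%, against 1.78% of all genes) and 0 lower (against 4.31%). Between the doses their median log2 FC was 0.52, while it was -0.03 when scaled to the mitochondrial mRNAs. The rises were led by FOS (chromosome 14, 75278828 to 75282230), a subunit of the AP-1 factor, which was at 1.34, 1.42 and 1.27 CPM with DMSO, at 2.02, 1.97 and 1.51 CPM at 0.1 μM and at 52.1, 75.4 and 35.5 CPM at 1 μM. The 1 μM libraries differed among themselves, but the lowest lay far above every other library, and the mean was 29.6-fold higher than at 0.1 μM (log2 FC 4.89 ± 0.23, adjusted p = 6.2e-13). EGR1, a zinc-finger factor, rose from 5.38, 6.48 and 5.84 CPM to 62.0, 65.5 and 28.3 CPM (log2 FC 3.14 ± 0.26), with replicate 3 lowest for both genes. JUNB rose from 43.0, 42.8 and 45.6 CPM to 236, 200 and 195 CPM (log2 FC 2.26 ± 0.07), and it already stood above its 34.2 to 37.0 CPM in DMSO at the low dose (log2 FC 0.31, adjusted p = 0.0063, or 0.062 in the fit of DMSO and both doses alone). IER3 rose by 2.33 from a level below 1 CPM.

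Not all AP-1 genes rose. FOSL1 was at 218 ± 13 CPM at 0.1 μM and at 64.3 ± 11 CPM at 1 μM (SD, n = 3), a fall of 1.76 on the log2 scale, and JUN fell from 250 ± 8.2 to 144 ± 29 CPM. NR4A1, a nuclear receptor, and DUSP4 and SPRY4, feedback inhibitors of MAP kinase signalling, fell by 1.60, 1.54 and 1.31. These 5 genes and SGK1, a kinase that rose from 55.6 ± 3.4 to 216 ± 15 CPM, were chosen after their values were seen. MYC, a growth-promoting transcription factor, rose from 73.4, 71.9 and 74.1 CPM to 149, 125 and 120 CPM (log2 FC 0.84 ± 0.09).

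Other large rises included GADD45B, a stress-induced regulator of MAP kinases, which went from 36.9, 42.9 and 44.3 CPM to 213, 201 and 188 CPM (log2 FC 2.28 ± 0.14), and the chemokine CCL2, which went from 2.32, 2.75 and 3.07 CPM to 15.6, 18.0 and 13.4 CPM (2.53 ± 0.22). CCN2, a matricellular growth factor, rose at both steps, from 145 to 158 CPM with DMSO to 194 to 199 CPM at 0.1 μM and 365 to 488 CPM at 1 μM, with an adjusted p of 0.052 for the first step without DMSO replicate 1. RSRP1, an arginine- and serine-rich protein, rose by 2.39 and CSKMT, a mitochondrial methyltransferase, by 2.18. FRG1 met the rule for large rises with a log2 FC of 4.89 ± 1.13, so its 0.1 μM libraries all lay below those at 1 μM. Its level varied widely between replicates, with DMSO libraries at 8.22, 9.43 and 0.468 CPM and 1 μM libraries at 20.96, 2.87 and 19.6 CPM. The DMSO and 1 μM ranges overlapped. KTN1 and EPB41L2 were the other abundant rises, by 1.25 and 1.06.

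The promoters of 5 of these rising genes are shown because 4 of them hold the same core element at nearly the same distance from the start. Each line gives the 120 bases before the start site, 5′ to 3′ on the gene's strand, from RefSeq's annotation of GRCh38.p14, with the TATA box (TATAAA) or the CArG box, the site of serum response factor, in capitals.
FOS, chr14:75278708-75278827, plus strand: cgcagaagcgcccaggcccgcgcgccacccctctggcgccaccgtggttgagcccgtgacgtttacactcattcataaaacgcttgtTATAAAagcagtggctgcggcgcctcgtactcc
EGR1, chr5:138465359-138465478, plus strand: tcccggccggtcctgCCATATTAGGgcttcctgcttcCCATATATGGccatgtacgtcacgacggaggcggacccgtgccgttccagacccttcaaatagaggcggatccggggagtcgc
JUNB, chr19:12791366-12791485, plus strand: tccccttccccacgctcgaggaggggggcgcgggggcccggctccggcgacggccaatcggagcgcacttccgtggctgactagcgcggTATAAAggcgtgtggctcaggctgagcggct
GADD45B, chr19:2476007-2476126, plus strand: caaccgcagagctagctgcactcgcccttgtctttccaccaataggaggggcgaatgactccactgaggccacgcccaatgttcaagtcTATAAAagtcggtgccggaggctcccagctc
CCN2, chr6:131951373-131951492, minus strand: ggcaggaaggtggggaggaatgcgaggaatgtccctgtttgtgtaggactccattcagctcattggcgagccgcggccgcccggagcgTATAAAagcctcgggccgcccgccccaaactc
Counted from the start site, the TATA box began at -33, -31, -31 and -32 in FOS, JUNB, GADD45B and CCN2, while the window of EGR1 held 2 CArG boxes. Promoters of 300 bases, 250 before and 50 after the start, were at hand for 12271 of the 16036 genes. The letters TATAAA on the gene's strand between 40 and 20 bases before the start were found in 1.94% of them, in 4.54% of the 661 genes higher beyond 1 and in 0.969% of the 2271 genes lower beyond 1. A CArG box on either strand was in 1.11% of all promoters, 1.21% of those of higher genes and 0.969% of those of lower genes. The cAMP response element TGACGTCA was in 3.12%, 2.42% and 3.96%, and the AP-1 site TGANTCA in 5.09%, 6.35% and 4.89%, both counted on either strand. Of all 1096 rises beyond 1, 92.0% had a mean log2 CPM below 1. Such genes could pass the count filter through groups in which they were high, and the promoter shares were not tested apart from it. A match is a string of letters and not a measured site.

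Of 15 BCL2 family genes 6 were lower and 4 higher (26.7%), the falls at a share near the 35.9% of all genes. MCL1, a short-lived protein that protects from apoptosis, was at 267, 250 and 261 CPM with DMSO, at 291, 277 and 261 CPM at 0.1 μM and at 137, 86.8 and 129 CPM at 1 μM (log2 FC between doses -1.23 ± 0.12, adjusted p = 1.9e-08). BCL2L1, BCL2 and the pro-apoptotic BAK1 and BMF fell too, by 1.35, 2.23, 1.30 and 2.08 on the log2 scale. Of 24 p53 response genes 12 were lower (50.0%) and 6 higher (25.0%), with a median of -0.36: MDM2, which degrades p53, fell from 73.4, 71.7 and 66.9 CPM to 23.6, 14.7 and 20.8 CPM, FAS and AEN fell by 1.85 and 1.93, and CDKN1A, the cell-cycle inhibitor p21, rose by 0.44.

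The lists that follow are again to be read against 35.9% lower and 34.3% higher over all genes. NF-kB feedback genes and cytokines were lower in 10 of 20 cases (50.0%), with NFKBIE and BIRC3 falling by 2.14 and 1.97, and higher in 4, with CCL2 above and CXCL3 (from 0.0873 to 0.266 CPM at 0.1 μM to 0.973 to 1.91 CPM at 1 μM). Integrated stress response genes were lower in 8 of 22 (36.4%) and higher in 6 (27.3%, median -0.03, or 0.20 with the upper quartile), and DDIT3, PPP1R15A and TRIB3 fell by 1.48, 1.21 and 1.40. Heat shock and unfolded protein genes were lower in 5 of 22 (22.7%) and higher in 13 (59.1%, median 0.50, or -0.05 relative to the mitochondrial mRNAs). Sterol synthesis genes were lower in 7 of 23 (30.4%) and higher in 11 (47.8%, median 0.16, or -0.06 with library size). Growth factor receptor and RAS-MAPK genes were lower in 11 of 26 (42.3%) and higher in 9 (34.6%, median -0.19, or 0.05 with the upper quartile). Within these lists XBP1, a factor of the unfolded protein response, fell by 1.52, MVK, of the mevalonate pathway, by 2.13, and EGFR by 1.19. Of 7 ABC drug transporters 1 was lower (14.3%) and 2 were higher (28.6%, median 0.13, or -0.10 with library size), and ABCC3 rose by 0.76.

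Ribosomal protein and respiratory chain genes were higher by a small amount, except when scaled to the mitochondrial mRNAs. Of 76 cytosolic ribosomal protein genes 75 were higher at 1 μM and 0 lower, with a median log2 FC of 0.54, and the same held for 66 of 74 nuclear oxidative phosphorylation genes (median 0.52, 2 lower) and for all 13 mitochondrially encoded mRNAs (0.59). RPL22, for example, was at 306, 311 and 335 CPM at 0.1 μM and at 548, 547 and 552 CPM at 1 μM, while NDUFV3, of respiratory complex I, fell by 1.10. Proteasome subunits were higher in 22 of 30 and lower in 5 (median 0.37), mesenchymal and matrix genes higher in 14 of 21 and lower in 5 (0.53), and snoRNA host genes higher in 16 of 25 and lower in 3 (0.44). These rises depend on the scaling. Relative to the mitochondrial mRNAs the medians of the lists of nuclear genes lay between -0.17 and 0.005, with 1 ribosomal protein gene and 2 oxidative phosphorylation genes called higher. The mitochondrially encoded mRNAs lie near 0 in that setting by construction. Their median was 0.37 with library size alone and 0.83 with the upper quartile. Mitochondrial ribosomal protein genes, in contrast, were lower in 38 of 76 and higher in 16 (median -0.21, or 0.02 with the upper quartile), and MRPS31 fell by 2.04.

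Replication-dependent histone genes, whose mRNAs normally lack a poly(A) tail, were higher in 30 of 39 cases and lower in 0, with a median of 1.33 that stayed between 0.78 and 1.56 under the other scalings. Their levels were low in these poly(A)-selected libraries. H4C3 was at 0.293, 0.314 and 0.141 CPM at 0.1 μM and at 2.55, 3.89 and 2.39 CPM at 1 μM, and H2AC17 at 0.151, 0.114 and 0.141 CPM and at 1.04, 0.953 and 0.888 CPM. The groups did not overlap for either gene. Of 24 small nuclear RNA genes, also normally without a tail, 22 were higher, with a median of 4.39. The count filter keeps a gene that is detected in only 1 group of 3 libraries. Members near silence at 0.1 μM could therefore pass it through groups in which they were high, and 39 of 69 histone genes passed. The shares called higher in these 2 lists are partly set by the filter and were not tested apart from it.

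**Figure D2:**
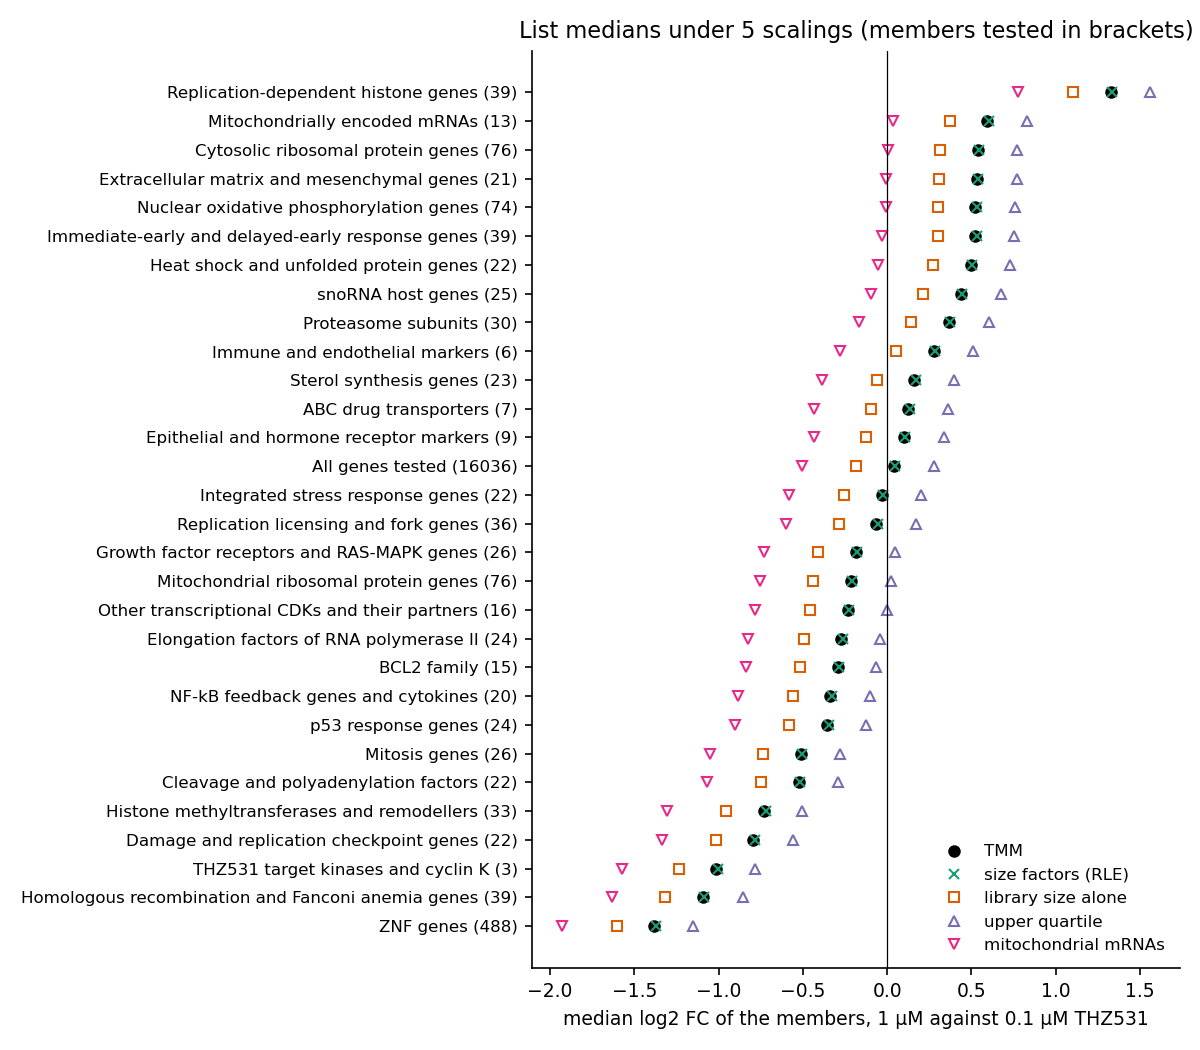
Median log2 FC of the tested members of each gene list, 1 μM against 0.1 μM THZ531, under 5 scalings (markers). The ZNF, homologous recombination and checkpoint lists lie below 0 and the histone list above 0 under every scaling, whereas the ribosomal protein, oxidative phosphorylation and matrix lists move from above 0 to about 0 when scaled to the mitochondrial mRNAs.

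Transcript length went with the direction of the difference. Among protein-coding genes whose spliced reference transcript is under 1 kb, 9.47% were lower and 63.8% higher, and among those of 8 kb or more 48.1% were lower and 19.8% higher. From 1 to 2, 2 to 4 and 4 to 8 kb, 27.5%, 40.9% and 49.6% were lower, so that the share called lower was highest at 4 to 8 kb, while the share called higher fell with each class. Across 13619 protein-coding genes the Spearman correlation of the log2 FC was -0.23 with spliced length, -0.08 with genomic span over 13747 genes, 0.08 with the number of exons and 0.13 with GC content. It was 0.04 with mean log2 CPM over 13747 genes. These are correlations across genes, which share libraries and are not independent. Expression level went with the direction too. Of protein-coding genes with a mean log2 CPM of 3 to 5, 58.8% were lower and 23.8% higher. At a mean of 9 or more 3.04% were lower and 88.6% higher. Length and level were not separated. Span alone gave no steady order: 27.7% of genes under 5 kb were lower, 42.8% of those from 20 to 50 kb and 28.0% of those of 500 kb or more. Genes with 2 to 3 exons were lower in 48.0% of cases and genes with 41 or more in 19.8%. Long noncoding RNAs were higher in 42.7% of 1405 cases (against 34.3% of all genes) and lower in 10.5% (against 35.9%), with a median of 0.52. Between DMSO and 0.1 μM 8.11% of them were lower (against 4.31% of all genes) and 1.14% higher (against 1.78%), with a median of -0.21. Weakly detected ones could pass the count filter through a group in which they were high, and the shares were not tested apart from it. The values of this paragraph are from TMM scaling alone, and scaling to the mitochondrial mRNAs moved the median of all genes by -0.54.

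**Figure D3:**
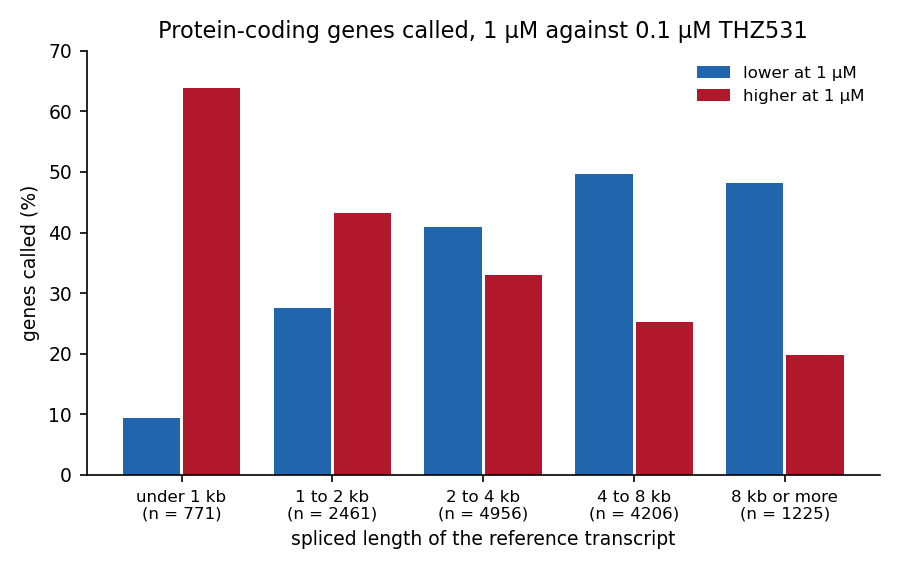
Percentage of protein-coding genes called lower (blue) or higher (red) at 1 μM than at 0.1 μM THZ531, adjusted p under 0.05 with no limit on the log2 FC, by spliced length of the reference transcript. The share called higher goes from 63.8% under 1 kb to 19.8% at 8 kb or more with TMM scaling.

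The 2 steps of dose were then read together, from DMSO to 0.1 μM and from 0.1 μM to 1 μM, each at an adjusted p under 0.05. The steps share the 0.1 μM libraries, so these classes are counts and no overlap was tested. Most genes that moved did so only past the threshold of the second step: 5310 fell and 5220 rose there without passing the first. Lower at both steps were 309 genes (1.93% of those tested) and higher at both 67 (0.418%). Down and then up were 208 genes, and up and then down 145, while 174 fell and 74 rose at the first step without passing the second.

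KRCC1, a gene of little known function, led the graded falls. It was at 35.3, 30.5 and 35.0 CPM with DMSO, at 16.1, 15.7 and 13.0 CPM at 0.1 μM and at 1.93, 2.24 and 2.09 CPM at 1 μM. The 3 groups lay well apart, with a log2 FC of -1.17 ± 0.11 at the first step (adjusted p = 1.8e-06) and -2.84 ± 0.12 at the second (adjusted p = 1.8e-13). KLHL22, an adaptor of a ubiquitin ligase, fell from 12.3 ± 0.408 CPM to 5.87 ± 0.367 and 2.11 ± 0.507 CPM (SD, n = 3), and IFT70A, of the ciliary transport complex, from 7.18 ± 0.628 CPM to 3.60 ± 0.229 and 1.21 ± 0.0734 CPM. The pseudogene ZNF702P fell by 0.97 and 1.10 on the log2 scale. PSCA, a surface antigen, fell by 1.09 and 1.28.

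Among the graded rises CDKN1A was at 15.1, 14.2 and 13.8 CPM with DMSO, at 22.0, 21.3 and 21.6 CPM at 0.1 μM and at 30.5, 29.1 and 28.5 CPM at 1 μM, with steps of 0.59 and 0.44 on the log2 scale. ATF3, a stress-induced transcription factor, was at 3.86, 4.18 and 3.74 CPM, then at 5.79, 5.78 and 5.54 CPM and then at 15.1, 16.7 and 13.2 CPM, with steps of 0.54 and 1.39. The first step of ATF3 was near the threshold and passed in 11 of 19 alternatives, and in 3 of the 9 that left out a library, with an adjusted p of up to 0.12. In both genes every library of a dose lay above every library of the dose below it. SLC30A3, a zinc transporter, had steps of 0.52 and 0.44, HES4, a transcriptional repressor, of 0.49 and 0.49, and LINC-PINT, a long noncoding RNA, of 0.51 and 0.69. MGC12916, a noncoding transcript that overlaps HS3ST3B1, rose by 1.55 and 1.36. Scaled to the mitochondrial mRNAs, the second step of CDKN1A, SLC30A3 and HES4 was -0.11, -0.10 and -0.05, with that of ATF3 still positive.

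Some genes moved in opposite directions at the 2 doses relative to DMSO. Higher at 0.1 μM and lower at 1 μM were 69 genes (0.43% of those tested), and lower at 0.1 μM and higher at 1 μM were 53 (0.331%). Both contrasts used the same DMSO libraries, and their backgrounds were 1.78% and 4.31% of genes called higher and lower at 0.1 μM, and 33.1% and 36.8% at 1 μM. The first-step changes were small, beyond 1 on the log2 scale in 2 of the 69 and 5 of the 53. The genes in these classes depended on the scaling and on single libraries. Under 4 scalings (TMM, DESeq2's size factors, library size, upper quartile) 24 and 17 genes kept their class. Relative to the mitochondrial mRNAs 6 and 1 genes met the criteria, and only 3 and 0 of them belonged to the 69 and the 53. Leaving out 1 library gave 17 to 115 and 24 to 57. Without any 1 of the DMSO or 0.1 μM libraries both counts were lower, at 17 to 31 and 24 to 37, and without replicate 2 at 1 μM they were 115 and 54.

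**Figure D4:**
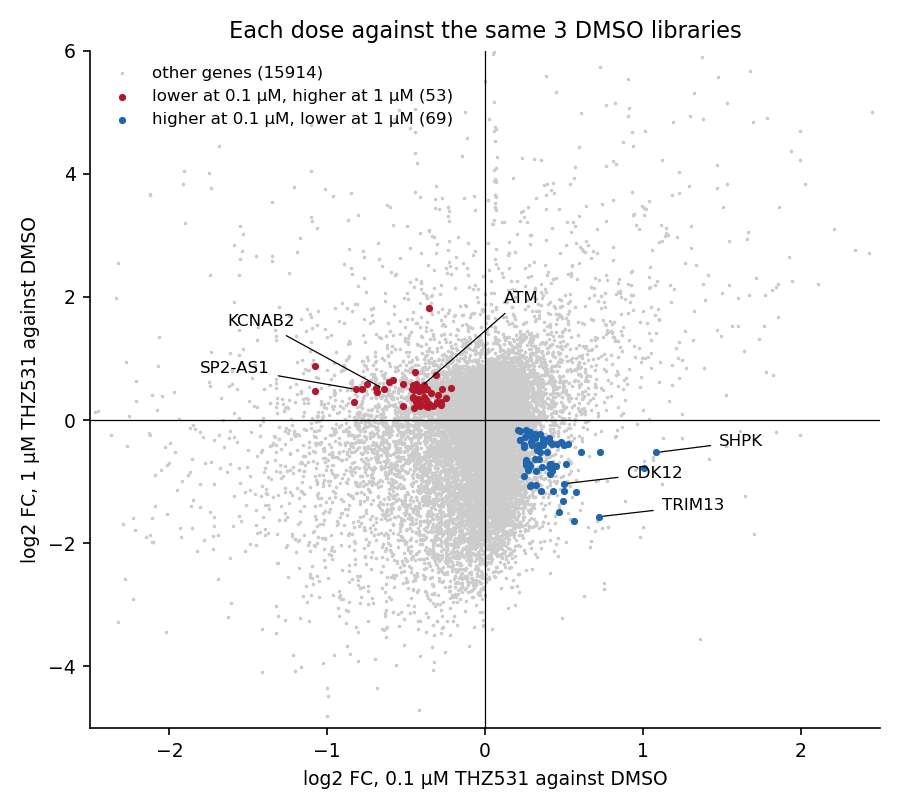
Log2 FC against DMSO at 0.1 μM (x axis) and at 1 μM (y axis) for each gene, with the 69 genes higher at 0.1 μM and lower at 1 μM in blue and the 53 genes of the opposite order in red. Both axes share the same DMSO libraries, and 90 genes lie outside the axes. With scaling to the mitochondrial mRNAs 6 and 1 genes met the criteria, 3 and 0 of them among the genes coloured here.

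SHPK (chromosome 17, 3608240 to 3636250), a kinase of the sugar sedoheptulose, had the largest rise at 0.1 μM of the 69 genes. It was at 14.4, 14.8 and 15.5 CPM with DMSO, at 32.6, 31.1 and 31.3 CPM at 0.1 μM and at 10.4, 8.35 and 12.4 CPM at 1 μM. The low dose was 1.08 ± 0.11 above DMSO on the log2 scale (adjusted p = 9e-06), the high dose 0.53 below it (adjusted p = 0.00035), and the doses differed by -1.61 ± 0.11. It overlaps TRPV1, and it kept both directions relative to the mitochondrial mRNAs. TRIM13, a ubiquitin ligase of the endoplasmic reticulum, was at 7.71, 6.10 and 6.83 CPM, then at 11.8, 11.5 and 10.7 CPM and then at 2.68, 1.55 and 2.73 CPM, and kept both directions there as well. ACER2, an alkaline ceramidase, INTS6L, related to a subunit of the Integrator complex, ZNF484 and ZNF586 were higher at 0.1 μM by 0.73, 0.61, 0.57 and 0.56 and lower at 1 μM by 0.51, 0.52, 1.17 and 1.64. The rise at 0.1 μM passed in 12 of 19 alternatives for ZNF484 and in 8 for ZNF586, with an adjusted p of up to 0.14 and 0.15.

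CDK12 itself belonged to this class, with a log2 FC of 0.50 ± 0.14 at 0.1 μM (adjusted p = 0.039) and -1.04 at 1 μM (adjusted p = 2.2e-06). Its rise at the low dose was near the threshold: without any 1 of the DMSO or 0.1 μM libraries its adjusted p was 0.052 to 0.14, with library size 0.06 and with the mitochondrial mRNAs 0.09. RAD18, TEAD4, WDR5 and CCNB2 were chosen after their values were seen. RAD18, a ubiquitin ligase of damage tolerance, went from 43.6 ± 2.42 CPM to 54.8 ± 2.63 and 31.1 ± 2.90 CPM (SD, n = 3), TEAD4, a partner of YAP, from 19.8 ± 1.08 CPM to 25.4 ± 1.11 and 8.89 ± 1.28 CPM, and WDR5, a subunit of histone methyltransferase complexes, from 87.9 ± 3.34 CPM to 103 ± 2.80 and 70.1 ± 5.09 CPM. CCNB2, a mitotic cyclin, went from 105 ± 6.99 CPM to 127 ± 3.98 and 90.1 ± 10.0 CPM. The rise at 0.1 μM passed in 14 of 19 alternatives for RAD18, in 13 for TEAD4, in 11 for WDR5 and in 9 for CCNB2. The fall of CCNB2 against DMSO at 1 μM passed in 13 of 19 and was -0.02 with the upper quartile (adjusted p = 0.82). Of the 69 genes 67 were protein-coding (97.1%, against 85.7% of all genes tested), with a median span of 37.9 kb, against 31.2 kb for all protein-coding genes. ZNF genes were 4 of the 69, and 488 of all 16036 genes tested. These differences were not tested.

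In the opposite class the 6 genes named by rule were KCNAB2, IFT80, SLC25A35, SLC7A8 and the antisense RNAs SP2-AS1 and TSPOAP1-AS1. KCNAB2, a subunit of potassium channels, was at 12.8, 15.3 and 14.4 CPM with DMSO, at 8.48, 8.77 and 9.98 CPM at 0.1 μM and at 20.1, 21.4 and 18.8 CPM at 1 μM. It lay 0.64 below DMSO at the low dose and 0.51 above it at the high dose on the log2 scale, a difference between doses of 1.15 ± 0.09 (adjusted p = 1.5e-09). IFT80, a ciliary transport protein, was at 16.8, 14.8 and 15.02 CPM, then at 12.3, 11.6 and 10.0 CPM and then at 23.8, 22.4 and 22.7 CPM. The carriers SLC25A35 and SLC7A8 were lower at 0.1 μM by 0.46 and 0.45 and higher at 1 μM by 0.51 and 0.48. SP2-AS1 and TSPOAP1-AS1 overlap genes on the other strand, with which they may share reads. Relative to the mitochondrial mRNAs the log2 FC of 1 μM against DMSO was -0.03 in KCNAB2, -0.02 in SLC25A35, -0.05 in SLC7A8 and -0.05 in SP2-AS1.

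ATM (chromosome 11, 108223067 to 108369102), the kinase that signals DNA breaks, was also in this class and was chosen after its values were seen. It was at 62.4, 63.6 and 58.1 CPM with DMSO, at 48.3, 45.3 and 45.3 CPM at 0.1 μM and at 98.5, 87.7 and 81.5 CPM at 1 μM. All 3 groups were apart, with -0.41 ± 0.07 at the low dose (adjusted p = 0.0015), 0.54 ± 0.07 at the high dose (adjusted p = 9.7e-07) and 0.95 ± 0.07 between them (adjusted p = 4.1e-10). Relative to the mitochondrial mRNAs its 1 μM level was -0.01 from DMSO and its fall at the low dose had an adjusted p of 0.11. Its direction between doses was the opposite of that of 16 of the 22 checkpoint genes. NEK9, a mitotic kinase, went from 74.8 ± 1.36 CPM to 56.7 ± 0.905 and 105 ± 7.41 CPM, BACE1, the beta-secretase, from 274 ± 3.997 CPM to 237 ± 4.82 and 394 ± 17.2 CPM, and HDAC6, a cytoplasmic deacetylase, from 10.1 ± 0.954 CPM to 7.97 ± 0.308 and 13.7 ± 1.01 CPM. The fall at 0.1 μM passed in 18 of 19 alternatives for NEK9, in 11 for BACE1 and in 10 for HDAC6. Of the 53 genes 8 were long noncoding RNAs and none had a ZNF symbol, beside 1405 and 488 of all 16036 genes tested. Another annotated gene overlapped 36 of the 53 (67.9%, against 60.2% of all genes tested). These differences were not tested.

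**Figure D5:**
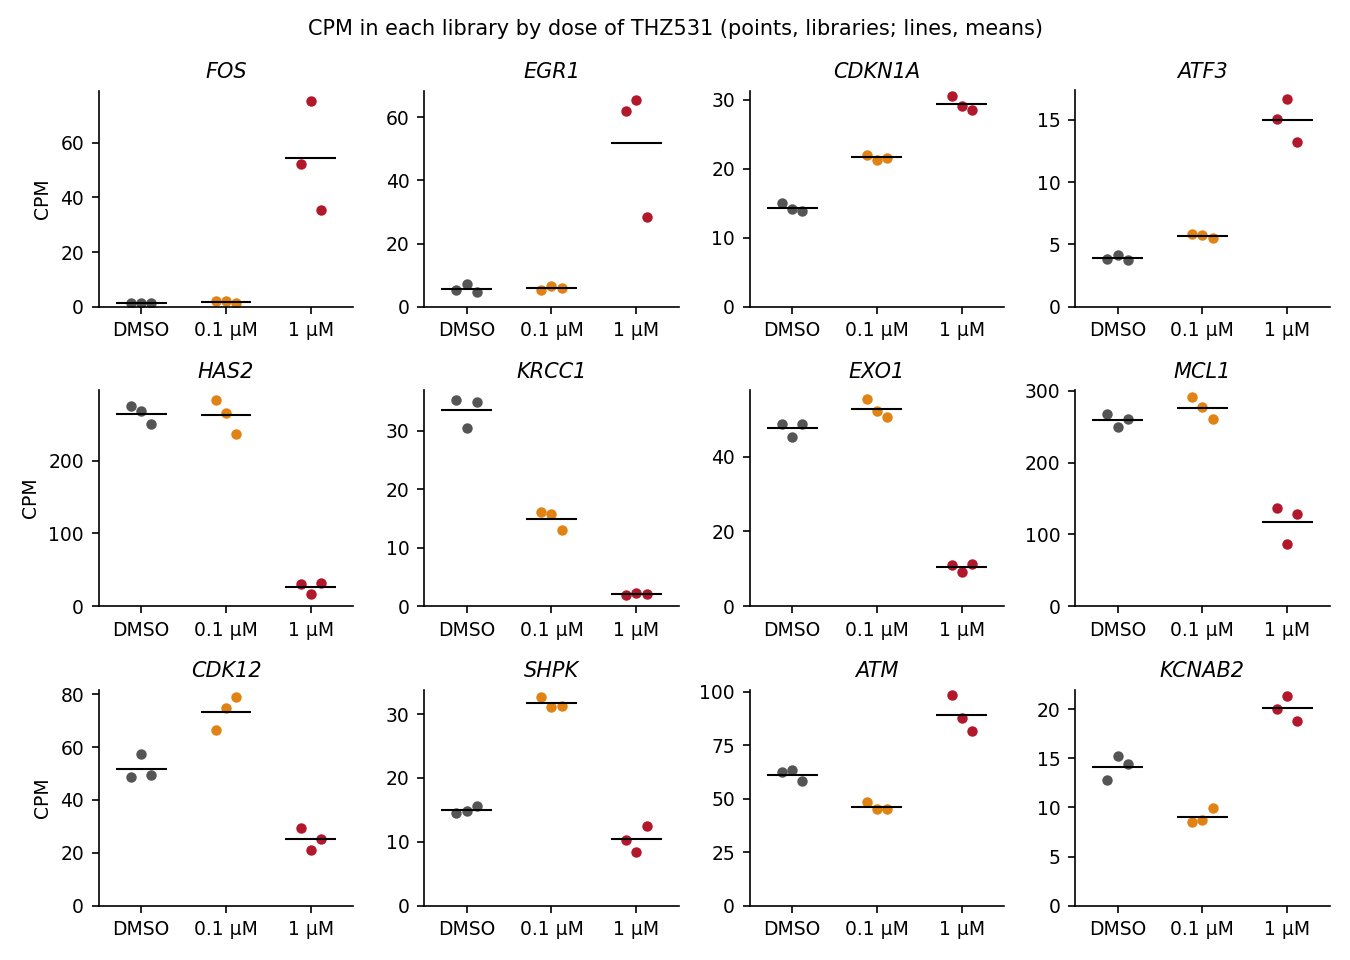
CPM of 12 genes in each library by dose of THZ531, with points for libraries and lines for the means of 3. FOS and EGR1 change at 1 μM only by the test used here, CDKN1A, ATF3 and KRCC1 at both steps (ATF3 near the threshold at the first), HAS2, EXO1 and MCL1 fall at 1 μM, CDK12 and SHPK are highest at 0.1 μM and ATM and KCNAB2 lowest there. The axes start at 0 and differ between genes, and with scaling to the mitochondrial mRNAs the second step of CDKN1A is slightly negative.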

How the data were processed

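Hs578T cells were sampled 8 h after treatment, and unstranded poly(A)-selected libraries were sequenced as read pairs. Per the labels and the study's methods, the authors aligned filtered reads to GRCh38 with HISAT2 2.1.0 and counted them on genes with featureCounts. The annotation release is not given in the sources used here. The deposited values are raw counts per gene, listed by NCBI gene identifier, with replicates kept apart. Symbols came from RefSeq for 27745 of 28395 identifiers, and the remainder held 0.0221% of counts.

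Even numbers made up 62.3 to 66.4% of the counts from 1 to 20 in the 9 libraries described, and the sources used here do not say if a read pair was counted once or per end. The counts were therefore also halved as an alternative chosen after seeing the data. Libraries held 102203282 to 112229052 counts in the 3 groups compared, and counting error mainly limits genes of low level. Log2 CPM used a prior count of 2. CPM printed per library were scaled with TMM factors.

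Groups were taken from the sample labels. Genes were filtered with filterByExpr, which left 16036 (13747 protein-coding). A quasi-likelihood model with 1 mean per group was fitted to all 21 libraries with edgeR 4.0.16 in R 4.3.3 after TMM scaling, and p-values were adjusted by the Benjamini-Hochberg method over all genes tested. Adjusted p-values printed with an SE or a log2 FC are from this fit. The groups compared were 1 μM against 0.1 μM, and each dose against DMSO. Dose counts used an adjusted p under 0.05 and a log2 FC beyond 1, and lists and dose classes used the adjusted p alone. The steps of the code were tested on simulated data. Alternatives were 4 other scalings (one to the 13 mitochondrially encoded mRNAs), 2 other filters, DESeq2 1.42.0, glmTreat, fits on fewer groups, the replicate number as a block, and leaving out each library.

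Named genes had a symbol, a mean log2 CPM of at least 1, an adjusted p under 0.05 and no overlap between the doses, and were the 8 largest falls and rises and the 4 most abundant falls and rises beyond 1. Added were 6 genes per graded or opposite class with the largest smaller log2 FC, up to 4 called members of each gene list by size of log2 FC, and CDK12, CDK13, CCNK, ABCG2, MCL1 and MYC. The members and lists were chosen with earlier results of these data known. Spliced lengths and exon numbers came from the reference annotation and promoters from RefSeq.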

Additional observations from a re-analysis of the deposited data

How the results depend on the processing

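The counts of falls and rises between the doses, 2820 and 1096, moved by over 1.5 times in some settings. Scaling to the mitochondrially encoded mRNAs gave 5100 and 514, upper-quartile scaling gave 1860 rises, a filter of at least 10 counts in every library gave 503 rises, and glmTreat, which tests against a log2 FC of 1, gave 1877 and 442. Leaving out each library gave 2608 to 3004 falls and 992 to 1129 rises. The opposite and graded classes moved more. With the mitochondrial mRNAs, 1 gene was lower and then higher than DMSO and 6 the other way, of which 0 and 3 were in the main classes. In that setting 137 fell and 7 rose at both steps, and 21 and 22 turned up or down at the second step. With the upper quartile these were 117 and 30 opposite genes and 65 that turned down, and library size alone left 31 graded rises. Without a filter 40 genes were higher and then lower. The fit of DMSO and both doses alone gave 17 of these, 26 graded rises and 53 turns down, whereas the DESeq2 Wald test gave 150, 145 and 274. Leaving out each library gave 24 to 57 and 17 to 115 opposite genes, 156 to 374 graded falls, 29 to 95 graded rises, 113 to 217 turns up and 48 to 218 turns down. The cause of these shifts was not tested.

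Log2 FC were recomputed for genes named by rule and for ATM, BACE1, HDAC6, NEK9, RAD18, WDR5, CCNB2 and TEAD4. Other genes chosen after their values were seen, such as BRCA1, RAD50, CSTF3 and FOSL1, are not among these values. Of 3439 recomputed log2 FC, 3253 stayed on the same side of the threshold and in the same direction. Another 172 no longer passed, 1 newly passed and 13 changed sign. Relative to the mitochondrial mRNAs the log2 FC between doses was -0.41 for ABCG2, -0.11 for CDKN1A, -0.050 for HES4 and -0.10 for SLC30A3, and that of 1 μM against DMSO was -0.012 for ATM, -0.021 for BACE1, -0.10 for HDAC6, -0.034 for KCNAB2, -0.047 for NEK9, -0.019 for SLC25A35, -0.054 for SLC7A8 and -0.054 for SP2-AS1. With library size alone that of ABCG2 between doses was -0.10.

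Same-numbered libraries of the 3 groups did not deviate together on average (mean r of -0.05, and 0.03 for different numbers). Deviations were taken from the mean of the 3 libraries of a group. The mean r for different numbers therefore largely follows from that for equal numbers and is no separate comparison. Single pairs spread widely, with r from -0.50 to 0.65 for equal numbers and from -0.82 to 0.80 for different ones. Across all 21 libraries of the fit, mean r was 0.15 for equal numbers (-0.83 to 0.89) and -0.07 for different ones (-0.84 to 0.85). These values do not settle if equal numbers mark 1 experiment, and the main fit did not read them as pairs. With the replicate block 2810 genes fell and 1092 rose, and 61 and 83 were opposite, 327 and 83 graded. Rises below a log2 CPM of 1 rest on few counts, and counts per gene cannot show a change in total RNA, partial transcripts or strand.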

Other observations

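The libraries that combined 0.1 μM THZ531 with another kinase inhibitor, lapatinib at 3.16 μM or nilotinib at 1 μM, give further levels for the genes above, here as means of 3 libraries with their SD and with no test. CDK12, the target kinase, was at 12.8 ± 1.98 CPM with lapatinib and 16.6 ± 2.30 CPM with nilotinib, means below those of both single doses. ATM, which was lowest at 0.1 μM alone, was at 74.9 ± 4.98 and 91.9 ± 4.31 CPM. FOS was at 12.9 ± 2.46 and 10.0 ± 1.20 CPM, between its mean levels at 0.1 μM and at 1 μM.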
